A study of Mus musculus with 12 samples.

Results

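The genes described here were 9 immediate early transcription factors of the mouse heart: Fos, Fosb, Jun, Junb, Jund and Atf3 of the AP-1 group, the zinc finger factor Egr1, the nuclear receptor Nr4a1, and Myc. They were picked by name out of 55401 gene identifiers in each of 12 libraries. The names were chosen by their family and also selected on earlier results for the same libraries, in which several of them were higher in total RNA of the knockout than of the wild type. That comparison, and those of IP with Input within a genotype that share its libraries, are therefore given as a description without p-values. A test across all genes was possible for 6 of the 9, because Fosb, Atf3 and Myc had too few reads.

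The study sequenced RNA of adult mouse hearts that were wild type (WT) or lacked Rpl3l, a striated-muscle paralog of the ribosomal protein Rpl3 (Rpl3l-/-, called KO). Input libraries held total RNA of heart homogenate, extracted with TRIzol. IP libraries held RNA that came down with ribosomes on an anti-HA antibody (translating ribosome affinity purification), extracted with a column kit. Each of the 4 groups, WT Input, KO Input, WT IP and KO IP, had 3 libraries, which the design names biological triplicates. All 12 were poly(A)-selected and sequenced as direct cDNA on nanopore flow cells. Cycloheximide, which halts elongating ribosomes, was put on the excised heart and in the lysis buffer in the protocol for IP, and is not described for Input. Handling, extraction kit and ribosome binding therefore cannot be told apart in any comparison of IP with Input. The sources used here do not say which ribosomal protein carried the HA tag or in which cells of the heart, and give neither age beyond adult nor sex.

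Immediate early genes are transcribed within minutes of a stimulus, from factors already present in the cell, with no need for new protein. Serum response factor with its ternary complex partners, and CREB after phosphorylation by kinases downstream of growth factor, stress and calcium signals, are the usual activators. Fos and Jun proteins pair through leucine zippers to form AP-1, Atf3 pairs with Jun proteins, Egr1 binds GC-rich sites, and Nr4a1 is an orphan receptor whose activity follows its amount. Myc pairs with Max and drives growth genes. Their mRNAs are short-lived, often through AU-rich elements in the 3' end, and in heart they are known for a fast response to pressure load, adrenergic drive, ischaemia and also to tissue handling.

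Depth was low and uneven, and lowest in KO Input. The KO Input libraries held 291040, 289594 and 169359 counts, against 356705 to 443177 in WT Input and more in every IP library. A part of depth in the KO Input levels was not tested. Library totals ran from 169359 counts (KO Input replicate 3) to 710868 (KO IP replicate 2), so that 3 counts in a library stood for 4.22 to 17.7 CPM (counts scaled to the library total). Levels of single libraries below are CPM with edgeR's TMM factors as well, and pooled ratios use library totals alone. Globin took 1.70% to 17.3% of counts. The deleted gene followed the labels: Rpl3l was lower in KO by a log2 fold change of -2.46 ± 0.27 (SE) in Input (edgeR adjusted p = 1.77e-05) and of -5.84 ± 0.33 in IP (edgeR adjusted p = 9.27e-12). Cardiomyocyte markers summed to 48700 to 59900 CPM over the 12 libraries with overlapping ranges in the 4 groups, and Actc1, a sarcomeric actin of every cardiomyocyte, was listed at 0 in all 12, so an exact 0 in these files need not mean absence.

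Sequence upstream of the gene is shown for the 3 members that were clearly higher in KO Input and have a RefSeq entry, and for Jun, which differed less between the groups. Each line is the 250 bases before the transcription start in RefSeq (GRCm38.p6), 5' to 3' on the gene's strand, with motif matches in capitals. The windows lie at chr12:85473640-85473889 on the plus strand for Fos, chr8:84978749-84978998 on the minus strand for Junb, chr15:101266596-101266845 on the plus strand for Nr4a1, and chr4:95052223-95052472 on the minus strand for Jun.
Fos: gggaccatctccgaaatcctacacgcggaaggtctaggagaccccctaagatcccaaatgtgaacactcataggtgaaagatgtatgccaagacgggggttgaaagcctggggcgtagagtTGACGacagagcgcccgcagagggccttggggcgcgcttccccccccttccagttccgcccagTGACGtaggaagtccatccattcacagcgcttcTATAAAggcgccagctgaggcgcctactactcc
Junb: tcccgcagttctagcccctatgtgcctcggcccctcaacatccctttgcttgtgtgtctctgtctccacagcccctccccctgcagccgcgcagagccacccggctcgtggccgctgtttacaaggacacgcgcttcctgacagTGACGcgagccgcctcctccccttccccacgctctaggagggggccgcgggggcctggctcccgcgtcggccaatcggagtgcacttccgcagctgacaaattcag
Nr4a1: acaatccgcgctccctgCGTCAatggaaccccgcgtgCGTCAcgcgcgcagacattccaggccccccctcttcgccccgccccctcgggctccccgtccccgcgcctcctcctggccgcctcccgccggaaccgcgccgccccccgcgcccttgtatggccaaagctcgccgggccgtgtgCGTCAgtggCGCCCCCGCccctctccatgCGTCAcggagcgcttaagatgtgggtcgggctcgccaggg
Jun: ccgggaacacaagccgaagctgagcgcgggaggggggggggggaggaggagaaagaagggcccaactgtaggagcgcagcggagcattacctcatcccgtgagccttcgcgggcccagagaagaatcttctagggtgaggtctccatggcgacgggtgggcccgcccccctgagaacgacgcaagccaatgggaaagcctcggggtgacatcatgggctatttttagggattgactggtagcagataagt

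Capitals mark the short CREB core TGACG, the Egr site GCGGGGGCG, each printed as its reverse complement where the match lies on the other strand, and the TATA box TATAAA. Also searched on both strands were the full CREB site TGACGTCA, which contains the short core, the AP-1 site TGANTCA and, by name, the CArG box of serum response factor. Fos held the CREB core at -129 to -125 and at -66 to -62 and a TATA box at -33 to -28, counted from the start. Junb held 1 core at -106 to -102. Nr4a1 held 4 cores, the nearest at -40 to -36, and an Egr site at -60 to -52. Jun held none of the motifs in this window, which says only that these letters are not in it. RefSeq windows were given for 7 of the 9 members (not Egr1 and Myc), and 5 of the 7 held the CREB core, against 17.8% of 32851 promoters. An Egr site was found in 2 of the 7, Nr4a1 and Fosb, against 2.57% of promoters. TATAAA was found in 1, against 12.4%. None of the 7 windows held the full CREB site (1.55% of promoters), the AP-1 site (6.75%) or the CArG box (1.47%). A match is a description of letters and was not tied to binding of any factor here.

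Fos, the partner that gives AP-1 its strongest activity, lies on chromosome 12 (GRCm38, 85473890 to 85477273, plus strand, 4 exons). Its level in WT Input was 15.0, 4.93 and 40.3 CPM in replicates 1 to 3. In KO Input it was 57.1, 61.6 and 233 CPM. The lowest KO value was above the highest WT value, and replicate 3 was the highest in both genotypes. On ribosomes Fos was nearly unread: 1.48, 0 and 0 CPM in WT IP, from 1 count in all, and 0, 3.92 and 3.32 CPM in KO IP, from 5 counts. Every IP library was below every Input library, though KO IP replicate 2 and WT Input replicate 2 differed by less than 1 count is worth. Fosb, its paralog on chromosome 7 (19302696 to 19310051, minus strand), had 1 count in WT Input replicate 3, 1 in KO Input replicate 2 and 0 in all 6 IP libraries. With a floor of 3 counts over the pooled group, 0 counts allowed 1.57 CPM in WT IP and 1.74 CPM in KO IP (counting error only), so no fold is given.

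**Figure D1:**
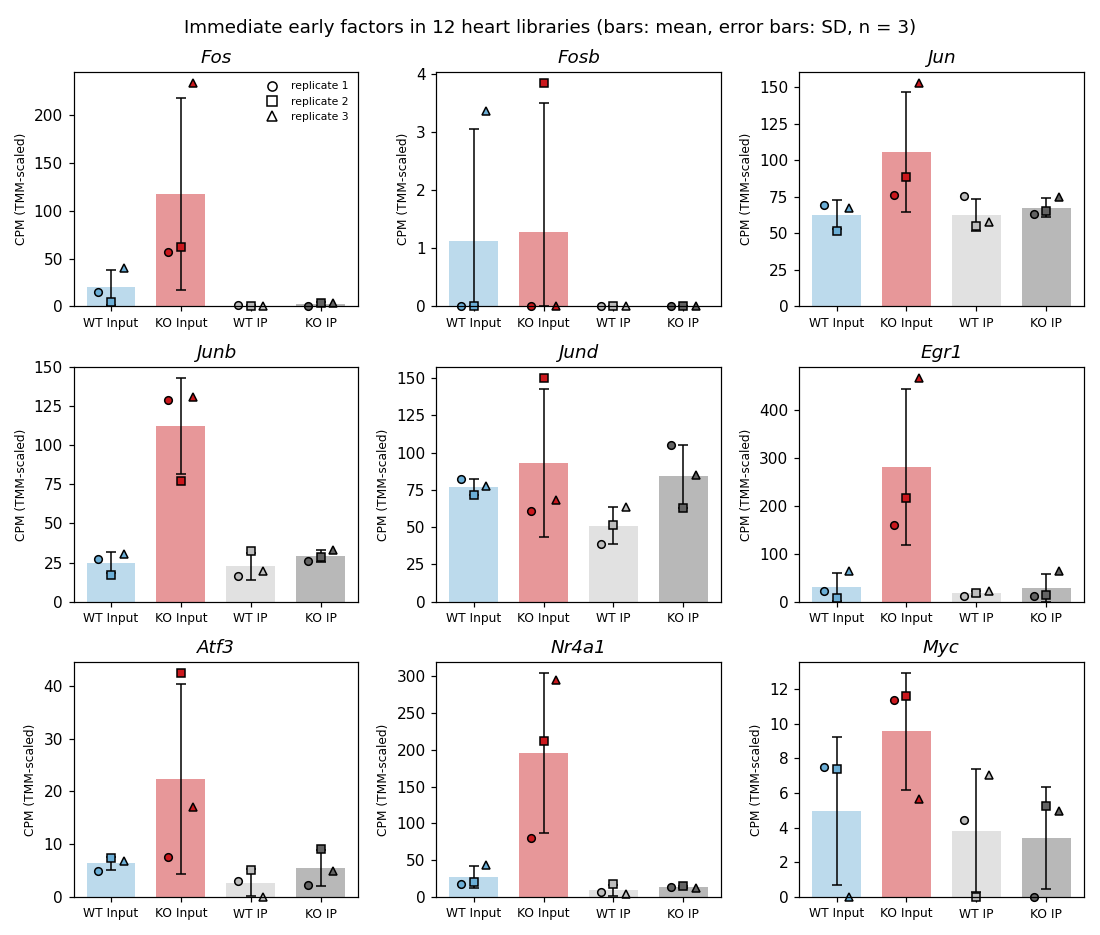
Level of each of the 9 members in CPM (linear axes, each with its own scale) in the 12 libraries, with bars for the mean of 3 libraries, error bars for the SD (ends below 0 are not drawn) and marker shapes for the replicate number. Egr1, Nr4a1, Junb and Fos stand highest in KO Input, while Jun and Jund lie between 38.5 and 153 CPM in all 12 libraries.

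Jun, the most broadly used Jun partner, is a gene of 1 exon on chromosome 4 (95049034 to 95052222, minus strand). It was read at 69.8, 51.8 and 67.2 CPM in WT Input and at 76.2, 88.6 and 153 CPM in KO Input. The KO libraries lay above the WT ones, KO replicate 1 by a narrow margin. In WT IP its level was 75.5, 54.8 and 58.1 CPM, and in KO IP 63.0, 65.4 and 74.8 CPM, inside the WT range. WT Input, WT IP and KO IP were thus at like levels (means of 62.9, 62.8 and 67.7 CPM), with KO Input alone above them at 106 ± 41.5 CPM (SD, n = 3). The gene overlaps the antisense gene Junos by 689 bases, which had 0 counts.

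Junb, a Jun protein that often restrains growth, has 1 exon on chromosome 8 (84974484 to 84978718, minus strand). In WT Input it stood at 27.4, 17.3 and 30.2 CPM and in KO Input at 129, 77.0 and 131 CPM, with a wide gap between the genotypes. Its IP levels were 16.3, 32.6 and 19.4 CPM in WT and 25.7, 28.8 and 33.2 CPM in KO. Here the genotypes overlapped, and both IP groups lay at the level of WT Input. Prdx2 overlaps Junb by 351 bases on the opposite strand, outside the exon of the coding Junb transcript, and the labels do not state whether reads were counted by strand. Prdx2 itself was at a mean of 610 CPM in WT Input and 541 CPM in KO Input, not the direction of Junb between genotypes. In IP it was at 457 CPM in WT and 490 CPM in KO. Its log2 fold change in IP against Input averaged over genotypes was -0.28 ± 0.12 (SE), lower in IP like Junb. A part of Prdx2 reads in the Junb counts was not tested.

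Jund, the Jun protein present in resting cells, has 1 exon on chromosome 8 (70698949 to 70700616, plus strand). WT Input gave 82.3, 71.5 and 77.3 CPM and KO Input 60.9, 150 and 68.2 CPM. KO Input replicate 2 was above and the others below the WT range, so the genotypes overlapped. In IP it read 38.5, 51.4 and 63.4 CPM in WT against 105, 62.8 and 84.8 CPM in KO, with KO IP replicate 2 just inside the WT range. An antisense gene, Gm11175, covers 919 bases of it and had 13 counts over all libraries.

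Atf3, a stress-induced bZIP repressor on chromosome 1 (191170296 to 191218039, minus strand, 4 exons), was rarely read. Its WT Input levels were 4.99, 7.40 and 6.72 CPM and its KO Input levels 7.62, 42.4 and 17.0 CPM, that is 7 against 16 counts in all. The lowest KO library exceeded the highest WT library by less than 1 count is worth. Pooled, the KO to WT ratio in Input was 3.73 (exact 95% interval 1.45 to 10.7, counting error only). It is a description, as this comparison chose the members, and it rests mostly on KO Input replicate 2. That library held 11 of the 16 KO counts, and replicates 1 and 3 held 2 and 3. WT IP gave 2.96, 5.14 and 0 CPM and KO IP 2.33, 9.16 and 4.99 CPM, with a pooled KO to WT ratio of 2.44 whose interval, 0.782 to 8.96, includes 1.

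Egr1, a zinc finger factor induced with Fos by serum response factor, lies on chromosome 18 (34859823 to 34864984, plus strand, 2 exons). WT Input replicates read 22.4, 7.40 and 63.8 CPM, and KO Input replicates 160, 216 and 466 CPM. The lowest KO library was well above the highest WT library. WT IP gave 11.8, 17.1 and 22.9 CPM and KO IP 11.7, 13.1 and 63.2 CPM. KO IP replicate 1 lay at the lower edge of the WT range, replicate 2 within it and replicate 3 far above it, so the KO IP mean of 29.3 ± 29.3 CPM (SD, n = 3) rests on that library.

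Nr4a1, on chromosome 15 (101254269 to 101274795, plus strand, 8 exons), was at 17.4, 19.7 and 43.7 CPM in WT Input. In KO Input it was at 80.0, 212 and 295 CPM, again without overlap. Its IP levels were 5.92, 17.1 and 3.52 CPM in WT and 14.0, 14.4 and 11.6 CPM in KO. Both IP groups lay under every Input library, WT IP replicate 2 by less than 1 count is worth, and the 2 genotypes overlapped in IP. Myc, also on chromosome 15 (61985391 to 61990374, plus strand, 3 exons), had at most 4 counts in any library. Its mean levels were 4.96 ± 4.29 CPM in WT Input, 9.55 ± 3.35 in KO Input, 3.83 ± 3.56 in WT IP and 3.41 ± 2.95 in KO IP (SD, n = 3). KO IP lay under KO Input in every library (at most 5.23 CPM against at least 5.68 CPM), by less than 1 count is worth, and the other pairs of groups overlapped. Pooled, the KO to WT ratio in Input, 1.91, had an exact 95% interval of 0.549 to 6.87.

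Summed over the 9 genes, the level was 187 to 333 CPM in WT Input and 583 to 1370 CPM in KO Input. The sum on ribosomes was 157 to 178 CPM in WT and 203 to 281 CPM in KO. Fos, Egr1, Nr4a1 and Junb made up 427, 566 and 1130 CPM of the KO Input sums, against 82.3, 49.3 and 178 CPM in WT Input. In bulk RNA, a larger share of cells that express a gene and more of its RNA per cell cannot be told apart.

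In total RNA the fitted KO to WT differences, given as a description because they chose the members, were largest for Egr1, Nr4a1, Fos and Junb. Egr1 was 9.37-fold higher in KO (log2 fold change 3.23 ± 0.53, SE), Nr4a1 7.34-fold (2.88 ± 0.44), Fos 5.90-fold (2.56 ± 0.60) and Junb 4.49-fold (2.17 ± 0.36). Jun was 1.64-fold higher (0.71 ± 0.29) and Jund 1.23-fold (0.30 ± 0.32), the latter within its error. Over all 6596 tested genes, 0.152% were higher in KO at an adjusted p under 0.05, the threshold used throughout. Calls of members are not given here, because this comparison picked the genes. Groups did not overlap for 5 of the 6 tested members, all but Jund, against 6.17% of tested genes. That count is not read as a result for the same reason, and Fos and Nr4a1 passed the low-count filter only through KO Input. The median log2 fold change was 2.36 over the 6 members and -0.01 over all tested genes.

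The replicates numbered 3 weighed on these sizes. KO Input replicate 3 was the shallowest library and the highest KO Input library for 5 of the 6 tested members, and WT Input replicate 3 was the highest WT Input library for 4 of 6. Over replicates 1 and 2 alone, the mean Egr1 level was 188 CPM in KO and 14.9 CPM in WT, that of Nr4a1 146 and 18.6 CPM, that of Fos 59.4 and 9.94 CPM, and that of Junb 103 and 22.3 CPM. The order of the genotypes was thus the same without both replicates numbered 3. Leaving out KO Input replicate 3 alone gave a log2 difference of 1.64 for Fos, 2.69 for Egr1, 2.49 for Nr4a1 and 2.06 for Junb. Leaving out WT Input replicate 3 alone raised Fos to 3.44 and Egr1 to 4.16.

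The same genotype comparison on ribosome-bound RNA uses other libraries and was tested. None of the 6 members passed edgeR's quasi-likelihood test with Benjamini-Hochberg adjustment in the 3 KO IP against the 3 WT IP libraries, where 0.0910% of all tested genes were called in either direction. DESeq2 and limma-voom also called 0, and each of the 3 tools had 1 member with an unadjusted p under 0.05. In edgeR this was Jund, at a log2 fold change of 0.70 ± 0.29 (SE) and an edgeR adjusted p of 0.920. Egr1 differed by 0.79 ± 0.61, Nr4a1 by 0.59 ± 0.61, Junb by 0.38 ± 0.35 and Jun by 0.11 ± 0.26, with edgeR adjusted p from 0.985 to 0.993. For Fos the fitted value of 1.88 ± 1.49 (edgeR adjusted p = 0.985) stands on 5 counts against 1, a pooled ratio of 5.55 with an exact 95% interval of 0.621 to 262. No member's IP groups were free of overlap, against 5.40% of tested genes with KO above WT. All 6 estimates were positive, with a median of 0.65 against 0.00 over all tested genes, and without KO IP replicate 3 that of Egr1 turned to -0.44. Without WT IP replicate 2 the estimate of Nr4a1 was 1.41, and without WT IP replicate 1 that of Fos was 3.40. Fibroblast markers, summed, were higher in KO IP (3230 to 3900 CPM) than in WT IP (2660 to 3100 CPM) without overlap, though none of the 7 tested was called, and their part in these estimates was not tested. These intervals are wide: a miss of the threshold does not show that the genotypes were alike on ribosomes.

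**Figure D2:**
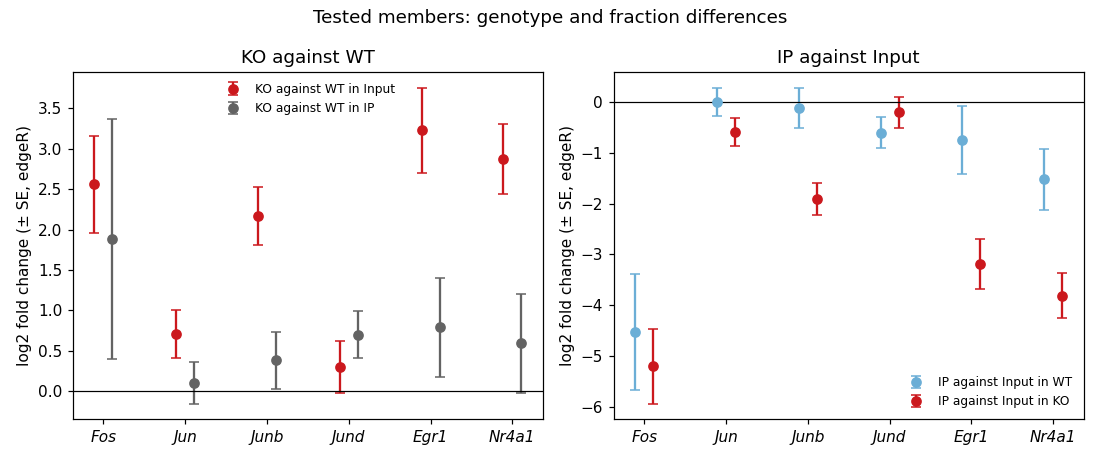
Fitted log2 fold changes (points) with SE (bars) for the 6 tested members, on the left KO against WT in Input and in IP, and on the right IP against Input in WT and in KO. Egr1, Nr4a1 and Junb lie above 2 in Input and under 1 in IP, and their IP to Input difference is larger in KO than in WT.

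Averaged over genotypes, 4 of the members were lower in ribosome-bound than in total RNA, though for Junb and Egr1 the difference lay mainly in KO. The average includes the KO Input libraries by which members were chosen, so its p-values are not independent of that choice. Fos was lower in IP by a log2 fold change of -4.87 ± 0.67 (SE, edgeR adjusted p = 4.18e-06). Nr4a1 followed at -2.67 ± 0.38 (edgeR adjusted p = 6.98e-06), Egr1 at -1.97 ± 0.42 (edgeR adjusted p = 0.00104) and Junb at -1.02 ± 0.26 (edgeR adjusted p = 0.00428). Jun, at -0.29 ± 0.20 (edgeR adjusted p = 0.279), and Jund, at -0.40 ± 0.22 (edgeR adjusted p = 0.177), did not pass. Of all tested genes 15.7% were called lower and 13.5% higher in IP, and no member was called higher. All 6 IP libraries lay under all 6 Input libraries for Fos and Nr4a1, as for 6.97% of tested genes. The nearest libraries differed by less than 1 count is worth in both genes. For Fos they were KO IP replicate 2 (3.92 CPM) and WT Input replicate 2 (4.93 CPM). For Nr4a1 they were WT IP replicate 2 (17.1 CPM) and WT Input replicate 1 (17.4 CPM). Fos and Nr4a1 had entered the test only through their KO Input levels, so the count of 4 among those that passed the filter is not read as support. With no count filter, all 9 members were fitted: the same 4 were called lower, as were 5.69% of all genes in that fit, while Atf3 was at -1.42 (edgeR adjusted p = 0.136), Fosb at -2.32 (0.382) and Myc at -0.80 (0.628). Egr1 lost its call, at -1.22 (edgeR adjusted p = 0.0524), when both Input replicates numbered 3 were left out, and was at -2.57 without KO IP replicate 3. Fos was at -5.61 without WT IP replicate 1.

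Within each genotype the IP to Input differences are a description, since they share the Input libraries by which members were chosen. In WT, Fos was at a log2 fold change of -4.53 ± 1.14, Nr4a1 at -1.52 ± 0.60 and Jund at -0.60 ± 0.31 (SE). For these 3 every WT IP library lay under every WT Input library. The share of all tested genes that did so was not counted, so this is not read as a result. For Nr4a1 the nearest WT libraries differed by less than 1 count is worth. Jun was level in WT (0.01 ± 0.28), and so was Junb (-0.12 ± 0.39), while Egr1 was at -0.75 ± 0.67, with an SE of nearly that size. In KO the differences were -5.21 ± 0.73 for Fos, -3.81 ± 0.44 for Nr4a1, -3.19 ± 0.49 for Egr1, -1.91 ± 0.32 for Junb, -0.59 ± 0.28 for Jun and -0.20 ± 0.31 for Jund. Fos was thus sparse on ribosomes in both genotypes, whereas the Junb estimate was near 0 in WT. The log2 ratio of IP to Input was lower in KO than in WT by -2.44 ± 0.84 for Egr1, -2.29 ± 0.80 for Nr4a1 and -1.79 ± 0.51 for Junb, and differed by -0.60 ± 0.39 for Jun and 0.40 ± 0.44 for Jund. For Fos the ratio difference, -0.68, is given without an SE, because the SE is computed from F and is unreliable where F is near 0. This ratio difference had no firm sign: it was 0.84 without WT IP replicate 1 and 0.25 without KO Input replicate 3. That quantity contains the Input genotype difference and is not a separate finding. Single libraries moved several of these values: without WT IP replicate 1, Fos in WT was at -6.02, and without WT Input replicate 3 at -3.65. Nr4a1 in WT was at -2.35 without WT IP replicate 2, and its ratio difference then -1.45. Egr1 in WT was at 0.19 without WT Input replicate 3, and its ratio difference then -3.37. Without KO IP replicate 3, Egr1 in KO was at -4.40 and its ratio difference at -3.66, and without KO Input replicate 3, Fos in KO was at -4.31.

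Pooled counts gave the same picture on a linear scale, with exact 95% intervals that cover counting error only. The IP to Input ratio of Fos was 0.0320 (0.000773 to 0.200, from 1 and 20 counts) in WT and 0.0302 (0.00952 to 0.0738, from 5 and 72 counts) in KO. That of Egr1 was 0.641 (0.377 to 1.09) in WT and 0.128 (0.0924 to 0.175) in KO. Nr4a1 had 0.366 (0.185 to 0.701) and 0.0816 (0.0504 to 0.127), and Junb 0.973 (0.584 to 1.64) and 0.299 (0.207 to 0.430). The counting intervals of WT and KO did not touch for Egr1, Nr4a1 and Junb. Jun, at 1.08 and 0.758, and Jund, at 0.694 and 0.935, had overlapping ones, as did the sparse Atf3 (0.458 and 0.299) and Myc (0.748 and 0.435). These intervals leave out the spread between libraries, and the ratios contain the Input difference by which members were chosen. In the fit, which includes that spread, the ratio difference of Egr1, Nr4a1 and Junb did not pass the adjusted p threshold.

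**Figure D3:**
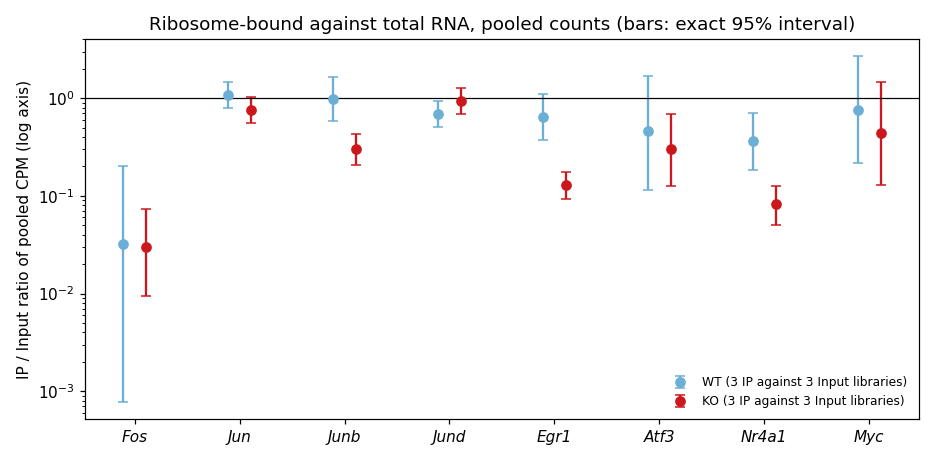
Ratio of pooled CPM in IP to pooled CPM in Input (log axis) for 8 members, with exact 95% intervals for counting error, in WT and KO; Fosb is left out because it had 0 counts in IP. Fos lies near 0.03 in both genotypes, and Egr1, Nr4a1 and Junb lie lower in KO than in WT.

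The mRNAs of the 4 members called lower in IP carried AU-rich pentamers in the 3' untranslated region of their longest coding transcript (GENCODE M21), a known mark of short-lived mRNA. Fos had 4 copies of ATTTA in 815 bases, including the only nonamer TTATTTATT among the members, Nr4a1 had 3 in 543, Egr1 2 in 1216 and Junb 2 in 485. Jun, which was not called, also had 4 in 1233, and Jund had 1 in 533, Atf3 3 in 1186, Myc 2 in 442 and Fosb 1 in 2145. Over 14802 protein-coding genes with a count, the median was 1 copy in 1098 bases, 67.7% had at least 1, and 7.72% had the nonamer. Copy number therefore did not separate the called from the uncalled members.

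Relatives of the members were compared as lists, each to be read beside the 13.5% of all tested genes called higher and the 15.7% called lower in IP against Input, and counts near those shares are no result about a list. Among 34 AP-1 and other bZIP relatives, 19 were tested. In IP against Input 2 were higher, Atf6, a sensor of endoplasmic reticulum stress, at 0.87 ± 0.21 (edgeR adjusted p = 0.00267), and the Jun partner Atf7 at 1.06 ± 0.38 (edgeR adjusted p = 0.0372), and 0 lower, with a list median of -0.07. Fosl2, the Fos relative with enough reads, had 30 and 19 counts in WT and KO Input. It had 40 and 45 counts in WT and KO IP. These are raw counts from groups with pooled totals of 1225453, 749993, 1912396 and 1724293 in the same order. Scaled for depth, Fosl2 was at 0.04 ± 0.58 in KO against WT in Input. In IP against Input it was at -0.28 ± 0.37, and it was called in neither. Fosl1 was listed at 0 throughout. Of the 7 Egr and Nr4a relatives and Egr corepressors 2 were tested, the corepressors Nab1 and Nab2, and neither was called (0.69 ± 0.35 and 1.00 ± 0.50, edgeR adjusted p = 0.141 for each). Egr3, named after its counts were seen, had 16 counts in KO Input, 1 in WT Input, 0 in WT IP and 1 in KO IP. Nr4a3 had 4, 9, 7 and 7 counts in WT Input, KO Input, WT IP and KO IP. The counts of Egr3 and Nr4a3 are likewise raw and come from the same unlike depths. Of 11 Myc network genes 5 were tested and 0 called, with a median of -0.07.

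Upstream regulators of these genes followed. Of 20 kinases, serum response and CREB factors, 12 were tested, of which 4 were higher in IP than in Input and 0 lower, with a median of 0.37. Srf, the serum response factor itself, was at 30.7 ± 10.9 CPM in WT Input and 42.6 ± 9.64 in KO Input against 99.6 ± 36.3 in WT IP and 99.0 ± 10.3 in KO IP (SD, n = 3), a log2 fold change of 1.43 ± 0.23 (edgeR adjusted p = 4.31e-05). Its partner Elk4 was at 1.61 ± 0.47 (edgeR adjusted p = 0.0119). The kinases Map2k1, at 0.77 ± 0.23 (edgeR adjusted p = 0.0129), and Rps6ka3, at 0.73 ± 0.26 (edgeR adjusted p = 0.0368), were the others. No gene of this list was called between genotypes in Input or IP.

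Other immediate early genes, 22 tested of 29, had 11 members lower in IP and 0 higher, with a median of -0.83 beside 0.02 over all tested genes. Dusp1, a phosphatase that shuts off MAP kinases, was at -1.54 ± 0.20 (edgeR adjusted p = 1.42e-06). The kinase Sgk1 was at -1.92 ± 0.27 (edgeR adjusted p = 5.67e-06), and Zfp36, which binds AU-rich elements and speeds mRNA decay, at -1.92 ± 0.29 (edgeR adjusted p = 1.87e-05). Ccn1, a secreted matricellular protein, was at -1.56 ± 0.24 (edgeR adjusted p = 2.32e-05). In Input 6 of the 22 were called higher in KO, against 0.152% of all tested genes, and 0 lower, with a median of 0.90. In IP none was called, against 0.0910% of all tested genes in either direction, with a median of -0.02. The Input calls come from the comparison that chose the members and are a description. This list was drawn up with those results known, so its direction is not independent of the members' own.

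Textbook targets of AP-1, Egr1 or Myc went both ways. Of 20, 13 were tested, and none was called between genotypes in Input or in IP. Their median log2 fold change of KO against WT was 0.60 in Input, beside -0.01 over all tested genes. In IP that median was -0.07, beside 0.00. In IP against Input 3 were lower, among them the coagulation initiator F3 at -1.29 ± 0.35 (edgeR adjusted p = 0.00725) and Thbs1 at -1.44 ± 0.51 (edgeR adjusted p = 0.0361). The metallothioneins Mt1, at 0.53 ± 0.12 (edgeR adjusted p = 0.00235), and Mt2, at 0.81 ± 0.24 (edgeR adjusted p = 0.0111), were higher. The list median in IP against Input was 0.14.

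**Figure D4:**
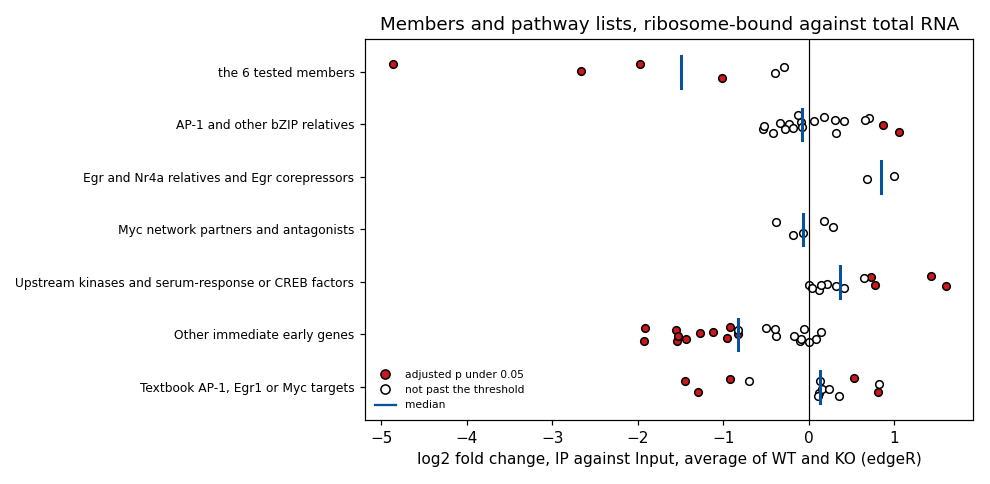
Log2 fold change of IP against Input, averaged over WT and KO, for the 6 tested members and for the tested genes of each list (points, filled where the adjusted p is under 0.05), with the median of each row as a bar. The members and the other immediate early genes lie mostly under 0, and the upstream kinases and factors mostly above it.

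Likeness to the members over the 12 libraries was measured as the correlation with their mean standardised log2 level, and is a description, as the libraries share group, depth and replicate. The 5 genes outside the members with the highest Pearson r were Zfp36 (0.931), Gtf3c2 (0.903), Ier2 (0.895), Wsb1 (0.892) and Ccn1 (0.890). Zfp36 had means of 28.0 CPM in WT Input, 99.1 in KO Input, 12.1 in WT IP and 15.7 in KO IP. Gtf3c2, a subunit of a factor for RNA polymerase III, varied less, with means of 31.0, 51.5, 29.9 and 29.8 CPM in the same order. Among the members, whose own values enter the mean, r ran from 0.957 for Nr4a1 down to 0.485 for Jund, the one least like the rest.

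Markers of heart cell types were read beside these results. Endothelial markers summed to 798 to 813 CPM in WT Input, 777 to 972 in KO Input, 591 to 645 in WT IP and 610 to 793 in KO IP, and 2 of the 8 were called higher and 2 lower in IP against Input. Adipocyte markers had 3 of 4 tested members called lower in IP, with a median of -2.02, while their summed level, 6760 to 7680 CPM in WT Input, 6700 to 8290 in KO Input, 7000 to 7660 in WT IP and 6400 to 8450 in KO IP, overlapped between groups. Macrophage markers lay at 530 to 944 CPM and smooth muscle and pericyte markers at 695 to 996 CPM over all libraries, with overlap between all groups. Fibroblast markers lay at 2740 to 3240 CPM in WT Input and 2970 to 3430 CPM in KO Input, beside the IP values given above, and 2 of the 7 tested were called higher and 1 lower in IP against Input. Neutrophil and platelet markers were at 66.9 to 259 CPM and lymphocyte markers at 0 to 47.0 CPM, with Cd3e, Ms4a1 and Cd8a at 0 in all libraries. Erythroid markers lay at 18300 to 166000 CPM in WT Input and 16700 to 47600 in KO Input. In IP they lay at 22800 to 203000 CPM in WT and 16200 to 72300 in KO, so the genotypes overlapped in both fractions. The median log2 fold change of the 5 tested erythroid markers, KO against WT, was -1.19 in Input and -1.18 in IP. No marker of any list was called between genotypes. The part of cell type content in the members' IP to Input differences was not tested.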

How the data were processed

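Total (Input) and ribosome-bound (IP) poly(A) RNA of WT and Rpl3l-/- mouse hearts was measured in 12 libraries. The deposited files hold whole-number counts per Ensembl gene, 1 file per library. The submitters' processing notes name minimap2 2.14, DESeq2 1.34.0 and build GRCm38; the counting rule, its use of strand and the annotation are not given in the sources used here. Symbols were matched to GENCODE M21 without version, 55141 of 55401 identifiers.

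The 4 groups, taken from the labels, were fitted together in edgeR 4.0.16 (R 4.3.3): filterByExpr (minimum count 10, total 15), TMM factors, quasi-likelihood test, and Benjamini-Hochberg adjustment over 6596 genes with a threshold of 0.05. The biological coefficient of variation was 18.2%. SE is the size of the log2 fold change over the square root of F, which is unreliable where F is near 0. Tested were KO against WT in IP and IP against Input averaged over genotypes. Alternatives were DESeq2 1.42.0, limma-voom (limma 3.58.1), other size factors, filters, a replicate block and left-out libraries. Low depth limits low genes most, and intervals on pooled counts cover counting error only.

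Members and lists were chosen with earlier results of these data known. Named were the 9 members, at most 4 called genes per list, contrast and direction by smallest p, the 5 genes most like the members, and Rpl3l. A called gene of the target list is not reported here. Egr3 and the other close relatives were named after their counts were seen. Upstream sequences are from RefSeq (GRCm38.p6). No 2 libraries held identical counts, and within each group libraries differed by more than sampling noise. The design text names biological triplicates. The labels give no batch. Ddit3 could not be matched to a single row and was left out.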

Additional observations from a re-analysis of the deposited data

How the results depend on the processing

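The calls of the 4 members lower in IP averaged over genotypes held under up to 21 alternatives, except as follows. These alternatives reuse the KO Input libraries by which members were chosen, so they show dependence on processing only and are not read as support. With at least 30 counts in at least 3 libraries required, only Egr1, Jun and Jund were tested, 1 member was called, the median was -0.44 (-1.49 otherwise), and the Input median was 0.71 (2.36 otherwise), since the others were no longer fitted. Egr1 lost its call without both Input replicates 3 (-1.22, edgeR adjusted p = 0.0524). Ranges over the alternatives were -5.61 to -3.99 for Fos, -3.08 to -2.24 for Nr4a1, -2.57 to -1.22 for Egr1 and -1.19 to -0.89 for Junb. KO against WT in IP called 0 members under every alternative run, and Egr1 there went from -0.44 (without KO IP replicate 3) to 1.22. Jund in Input was -0.28 without KO Input replicate 2. Egr1 in WT, IP against Input, was 0.20 without both Input replicates 3. Over all genes, calls numbered 12 in Input (4 to 77), 6 in IP (2 to 55) and 1924 averaged (1361 to 2084), the highest each time with no count filter. Without WT Input replicate 1 there were 4 in Input, without KO Input replicate 3 there were 5, and without WT IP replicate 1 there were 2 in IP. Same-numbered libraries did not deviate together (r of -0.115 to 0.0423, own number best in 1 of 18). No pairing by number was thus seen, which cannot settle whether Input and IP came from the same hearts. The replicate block gave 15 calls in Input, 8 in IP and 1824 averaged, with the same 4 members called on average and 0 in IP. Fitting only the libraries compared does not apply to the averaged contrast.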
